A study of Mus musculus with 71 samples.

Results

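The diet by training interaction at +12 h compared how 24 of the 71 mice of the series responded to a learning task on 2 diets. The members were chosen by their labels: the 6 NC ad lib and 6 HFS ad lib mice killed in the home cage at zt15 (HC zt15), and the 6 NC ad lib and 6 HFS ad lib mice culled 12 h after training (ORM+12 h, also about zt15). For each gene the response to training was the log2 fold change of ORM+12 h over HC zt15 within a diet, and the interaction was the response in HFS ad lib mice minus the response in NC ad lib mice. A positive interaction therefore means a response that was more positive on the HFS diet. Male C57BL/6J mice, wild type in every group, received normal chow (NC) or a high-fat, high-sugar diet (HFS) from weaning for 12 weeks with food at all hours. Training was a single session of object recognition memory (ORM) of 10 min early in the light phase, and home cage mice were not trained. Hippocampal mRNA was purified by pS6-TRAP, an immunoprecipitation of ribosomes whose protein S6 is phosphorylated, and sequenced. Both tasks and both diets went through the same purification, and no mouse was measured more than once, so the responses are differences between groups of mice.

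Ribosomal protein S6 is phosphorylated downstream of the mTORC1 and ERK pathways, and its phosphorylation rises in recently active neurons, so pS6-TRAP enriches the mRNAs being translated in such cells. Object recognition is a task that rodents learn from their preference for new objects, and its long-term storage depends on protein synthesis in the hours after training. A diet rich in fat and sugar given from weaning is known to impair hippocampus-dependent memory in rodents. The interaction asks whether the late response to training depends on the diet.

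The 24 libraries held 34698914 to 58754989 counted reads. Markers of excitatory neurons were abundant in each of them, with the 6 genes of the list (Slc17a7, Camk2a and others) summing to 9550 to 13700 CPM (counts scaled to a common library size). Several mice stood apart from their groups in markers of other tissue. The 10 choroid plexus markers, such as Ttr and Kl, were all detected in every mouse, and their sum had a median of 6950 CPM (range 692 to 20700) in NC ad lib HC zt15, 517 CPM (362 to 5370) in NC ad lib ORM+12 h, 942 CPM (246 to 12000) in HFS ad lib HC zt15 and 7180 CPM (251 to 21900) in HFS ad lib ORM+12 h. The choroid plexus, the tissue that secretes cerebrospinal fluid in the ventricles beside the hippocampus, thus had its higher group medians in untrained NC mice and in trained HFS mice. The 8 microglial markers summed to 52.3 to 134 CPM in 23 mice and to 569 CPM in replicate 2 of HFS ad lib HC zt15. The 6 thalamic markers were highest in replicates 1 and 3 of the same group, at 351 and 345 CPM, against a group median of 68.6 CPM. In a bulk library, fewer cells of a type and less RNA per cell cannot be told apart.

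**Figure D1:**
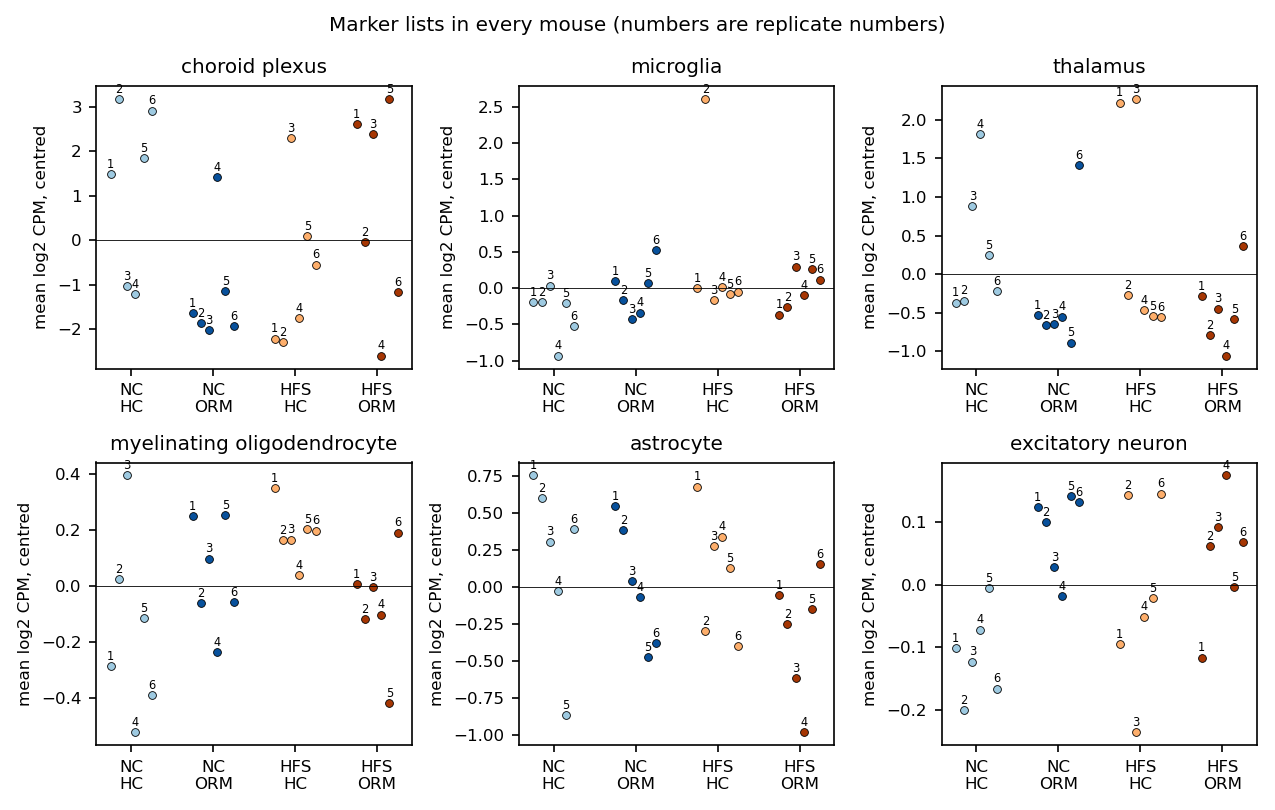
The 6 marker lists in each of the 24 mice, as the mean log2 CPM of the list's genes after centring each gene on the 24 mice (y axis) by group (x axis, HC for HC zt15 and ORM for ORM+12 h), with replicate numbers beside the points. The choroid plexus score was high in replicates 1, 2, 5 and 6 of NC ad lib HC zt15 in replicates 1, 3 and 5 of HFS ad lib ORM+12 h, in replicate 4 of NC ad lib ORM+12 h and in replicate 3 of HFS ad lib HC zt15, and the microglial score stood apart in replicate 2 of HFS ad lib HC zt15.

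Of 30141 genes tested, 32 (0.106%) differed in their response between the diets at an adjusted p under 0.05, 18 (0.0597%) with a more positive response in HFS ad lib mice and 14 (0.0464%) with a more positive response in NC ad lib mice. At an unadjusted p under 0.05 there were 5643 genes (18.7%). Every one of the 32 differentially expressed genes (DEG) had point estimates of opposite sign on the 2 diets, a pattern that an interaction test favours. The estimates were of opposite sign for 56.1% of all genes tested. Of the 32 DEG, 21 reached an unadjusted p under 0.05 in each diet taken alone, 5 in NC ad lib mice alone and 6 in HFS ad lib mice alone. Training by itself called 63 genes on NC (0.209%), 43 higher (0.143%) and 20 lower (0.0664%), and 54 on HFS (0.179%), 21 higher (0.0697%) and 33 lower (0.109%), including 9 and 7 of the 32 DEG, and none of the 32 passed on both diets. The responses were small. Among the 27 DEG with counts in at least 17 of the 24 mice, the interaction had a median size of 0.58 on the log2 scale (0.32 to 2.81).

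The promoters of 4 DEG described in detail are shown, those of Lrrc56 and Gpx4 from the genes with a more positive response in HFS ad lib mice, and those of Synrg and Map1b from the genes with a more positive response in NC ad lib mice. Each is 250 bases before to 50 bases after a start site from RefSeq (GRCm38.p6), 5′ to 3′ on the gene's strand, at chr7:141194893-141195192 (+), chr10:80053315-80053614 (+), chr11:83964181-83964480 (+) and chr13:99516553-99516852 (-). Lrrc56 has 2 such start sites and Gpx4 has 4, of which 1 each is printed. Capitals mark matches on either strand to the letters GTTGCCAT (from the X-box bound by RFX factors of ciliated cells), CCAAT (the NF-Y box), CACGTG (the E-box bound by clock and Myc-type factors) or TGACGTCA (the full cAMP response element), and no 2 of the matches overlap.
Lrrc56: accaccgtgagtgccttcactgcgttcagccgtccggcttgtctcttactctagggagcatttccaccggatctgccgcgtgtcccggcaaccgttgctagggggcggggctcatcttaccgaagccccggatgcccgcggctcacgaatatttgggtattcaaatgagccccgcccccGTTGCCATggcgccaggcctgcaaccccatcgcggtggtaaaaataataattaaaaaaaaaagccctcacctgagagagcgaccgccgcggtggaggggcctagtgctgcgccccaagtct
Gpx4: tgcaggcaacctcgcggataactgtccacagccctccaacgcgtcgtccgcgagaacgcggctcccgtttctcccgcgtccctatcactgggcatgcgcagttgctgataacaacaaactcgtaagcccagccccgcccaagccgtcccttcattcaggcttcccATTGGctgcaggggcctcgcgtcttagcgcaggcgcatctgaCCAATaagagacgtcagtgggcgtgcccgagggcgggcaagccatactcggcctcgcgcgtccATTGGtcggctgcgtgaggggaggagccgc
Synrg: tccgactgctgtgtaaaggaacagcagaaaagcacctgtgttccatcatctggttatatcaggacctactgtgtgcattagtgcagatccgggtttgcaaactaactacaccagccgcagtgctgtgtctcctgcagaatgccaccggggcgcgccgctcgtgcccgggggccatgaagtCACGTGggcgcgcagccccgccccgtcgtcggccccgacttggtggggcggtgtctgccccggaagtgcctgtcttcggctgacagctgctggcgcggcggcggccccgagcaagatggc
Map1b: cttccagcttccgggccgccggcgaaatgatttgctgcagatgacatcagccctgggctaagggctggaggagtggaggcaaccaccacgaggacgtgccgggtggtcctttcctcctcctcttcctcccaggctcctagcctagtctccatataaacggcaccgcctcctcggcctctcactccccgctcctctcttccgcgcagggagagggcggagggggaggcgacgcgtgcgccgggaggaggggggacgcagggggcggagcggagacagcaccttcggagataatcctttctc

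The printed Lrrc56 promoter holds GTTGCCAT, which 1.35% of 32851 RefSeq promoters hold. The other Lrrc56 promoter lacks it and holds CCAAT at 1 place. The printed Gpx4 promoter holds CCAAT at 3 places, against 37.4% of all promoters with at least 1. The other Gpx4 promoters hold it at 1 place, at 3 places and not at all. The Synrg promoter holds CACGTG, as do 7.15% of all promoters. No match was found in the Map1b window, and TGACGTCA occurs in 1.79% of all promoters and in none of these. RefSeq promoters were matched for 23 of the 32 DEG, 34 promoters in all, of which 13 held CCAAT, 2 held CACGTG (Synrg and Paxx) and 1 held GTTGCCAT.

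Lrrc56, which encodes a leucine-rich repeat protein needed to assemble the dynein arms of motile cilia, had the smallest p of the interaction. It lies on chromosome 7 (GRCm39, 140773995 to 140789989, plus strand). Its level ranged from 6.41 to 10.6 CPM (median 9.03) in NC ad lib HC zt15, 5.83 to 7.03 CPM (6.60) in NC ad lib ORM+12 h, 4.93 to 8.10 CPM (6.07) in HFS ad lib HC zt15 and 6.92 to 11.7 CPM (9.50) in HFS ad lib ORM+12 h. Trained and untrained mice overlapped on each diet, through the lowest home cage mouse on NC, and on HFS through the highest home cage mouse, which lay above 2 of the trained mice. The response was -0.43 (log2) on NC (adjusted p = 0.101) and a rise of 0.57 on HFS (adjusted p = 0.0337). The interaction was 1.00 ± 0.17 (log2, SE; adjusted p = 0.00634), and it stayed past the threshold with any 1 of the 24 mice left out, at 0.92 to 1.09.

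Ost4, a small subunit of the oligosaccharyltransferase that attaches N-glycans in the endoplasmic reticulum, ranged from 32.6 to 38.1 CPM (median 35.5) in NC ad lib HC zt15 and from 24.7 to 34.0 CPM (25.4) in NC ad lib ORM+12 h. In HFS ad lib mice it ranged from 28.5 to 34.4 CPM (32.9) in the home cage and from 30.2 to 46.5 CPM (35.3) after training. A single trained NC mouse, replicate 1, reached into the home cage range. Ost4 fell by 0.39 (log2) on NC (adjusted p = 0.0229), its response on HFS was 0.19 (adjusted p = 0.238), and the interaction was 0.58 ± 0.12 (adjusted p = 0.0271).

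Gpx4 encodes the glutathione peroxidase that reduces lipid hydroperoxides in membranes and restrains ferroptosis. Its level was 132 to 201 CPM (median 165) in NC ad lib HC zt15, 110 to 140 CPM (127) in NC ad lib ORM+12 h, 121 to 174 CPM (135) in HFS ad lib HC zt15 and 141 to 220 CPM (170) in HFS ad lib ORM+12 h. The groups overlapped by 1 home cage mouse on NC, and on HFS the highest home cage mouse, replicate 3, lay above 4 of the trained mice. Gpx4 fell by 0.44 on NC (adjusted p = 0.0479), its response on HFS was 0.31 (adjusted p = 0.171), and the interaction was 0.75 ± 0.15 (adjusted p = 0.0271). Within groups Gpx4 moved with the choroid plexus score (Pearson r = 0.73 across the 24 mice after subtracting each group's mean, a description over mice that share 4 groups). With that score as a covariate, its interaction was 0.47 (adjusted p = 0.0782).

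Polr2m, a subunit of a form of RNA polymerase II, was the best expressed gene of this direction. It ranged from 195 to 238 CPM (median 215) in NC ad lib HC zt15 and from 165 to 186 CPM (179) in NC ad lib ORM+12 h, with no overlap. It ranged from 187 to 238 CPM (208) and from 208 to 231 CPM (225) in the corresponding HFS ad lib groups. Polr2m fell by 0.30 on NC (adjusted p = 0.0212), its response on HFS was 0.10 (adjusted p = 0.381), and the interaction was 0.41 ± 0.09 (adjusted p = 0.0326). D330023K18Rik, a long non-coding RNA, was near 3 CPM and had an interaction of 1.13 ± 0.24 (adjusted p = 0.0286), with group medians of 3.03 and 2.02 CPM before and after training on NC and 2.03 and 3.12 CPM on HFS. Its groups overlapped on each diet, from 1.63 to 2.47 CPM against 2.22 to 3.71 CPM on NC.

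Of the other genes with a more positive response in HFS ad lib mice, Srsf9, a splicing factor of the SR family, did not overlap between trained and untrained HFS ad lib mice (53.9 to 62.1 against 45.1 to 53.5 CPM), with an interaction of 0.40 ± 0.09 (adjusted p = 0.0326). Cfap68, a protein of ciliary microtubules, fell by 0.45 on NC (adjusted p = 0.0387) and had an interaction of 0.69 ± 0.15 (adjusted p = 0.0326). Ninj1, which mediates rupture of the plasma membrane in dying cells, had an interaction of 0.94 ± 0.20 (adjusted p = 0.0326), and Dusp18, a dual specificity phosphatase, of 0.57 ± 0.12 (adjusted p = 0.0331). Ninj1 and Dusp18 moved with the choroid plexus score within groups (r = 0.77 and 0.82). Beyond the first 12, named after their values were seen, Fyco1 (an adaptor of autophagosome transport), Dgcr6 and Prrg2 did not overlap between NC ad lib groups and Gm56915, a long non-coding RNA, did not overlap between HFS ad lib groups, while P2rx6 (an ATP-gated channel subunit) and Paxx (a factor of DNA end joining) overlapped on each diet. Over the 18 genes, r with the choroid plexus score ran from -0.07 to 0.82 and was over 0.5 for 7 (Dusp18, Ninj1, Spmip3, P2rx6, Gpx4, Fyco1 and Mexis), and over the other 14 DEG it ran from -0.38 to 0.22.

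Synrg led the genes with a more positive response in NC ad lib mice. It encodes synergin gamma, a partner of the AP-1 clathrin adaptor at the trans-Golgi network, and lies on chromosome 11 (GRCm39, 83855089 to 83936074, plus strand). It ranged from 83.0 to 110 CPM (median 105) in NC ad lib HC zt15 and from 117 to 125 CPM (123) in NC ad lib ORM+12 h, with no overlap. In HFS ad lib mice it ranged from 93.3 to 121 CPM (106) in the home cage and from 84.7 to 114 CPM (94.5) after training, with overlap. Synrg rose by 0.27 on NC (adjusted p = 0.0229), its response on HFS was -0.15 (adjusted p = 0.2), and the interaction was -0.42 ± 0.08 (adjusted p = 0.015). The call was lost with 2 of the 24 mice left out in turn.

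Map1b, a microtubule-associated protein of growing axons and dendrites, was the most abundant DEG, at 547 to 721 CPM (median 584) in NC ad lib HC zt15 and 587 to 917 CPM (841) in NC ad lib ORM+12 h. In HFS ad lib mice it was at 631 to 747 CPM (728) in the home cage and 494 to 775 CPM (646) after training. On NC 1 trained mouse, replicate 1, fell among the untrained mice, and on HFS the groups overlapped widely. Map1b rose by 0.40 on NC (adjusted p = 0.0212), its response on HFS was -0.13 (adjusted p = 0.383), and the interaction was -0.53 ± 0.11 (adjusted p = 0.0326). Epb41l3, the adaptor protein 4.1B that links membrane proteins to spectrin and actin, was at 171 to 224 CPM (196) in HFS ad lib HC zt15 and at 139 to 183 CPM (150) in HFS ad lib ORM+12 h, with overlap. It fell by 0.33 there (adjusted p = 0.0337), against 0.13 on NC (adjusted p = 0.299), and the interaction was -0.46 ± 0.10 (adjusted p = 0.0271).

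Map7d2, a microtubule-associated protein that recruits kinesin-1, was at 246 to 362 CPM (median 319) in HFS ad lib HC zt15. After training, 5 HFS ad lib mice lay between 238 and 243 CPM and replicate 4 at 317 CPM. Its interaction was -0.50 ± 0.10 (adjusted p = 0.0271), with responses of 0.21 on NC (adjusted p = 0.177) and -0.29 on HFS (adjusted p = 0.0658). Zfp955b, a zinc finger gene, was at 13.9 CPM (12.9 to 17.4) and 17.2 CPM (16 to 21.2) before and after training on NC and at 17.6 CPM (14.5 to 19.3) and 14.6 CPM (12.2 to 17) on HFS (medians), and its interaction was -0.54 ± 0.11 (adjusted p = 0.0271). Tcof1, a nucleolar factor of ribosomal RNA synthesis, had an interaction of -0.48 ± 0.10 (adjusted p = 0.0326). Rnmt, the methyltransferase of the mRNA cap, fell by 0.27 on HFS (adjusted p = 0.0337) and had an interaction of -0.38 ± 0.09 (adjusted p = 0.0434). Slc9a7, a sodium and proton exchanger of the Golgi, had an interaction of -0.80 ± 0.18 (adjusted p = 0.0444). Named after their values were seen, Cdyl2, a chromodomain protein, did not overlap between HFS ad lib groups (3.92 to 5.44 CPM untrained, 1.87 to 3.28 CPM trained), and Trim9, a neuronal ubiquitin ligase, had the smallest difference of the 32, at -0.32 ± 0.07 (adjusted p = 0.0492).

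**Figure D2:**
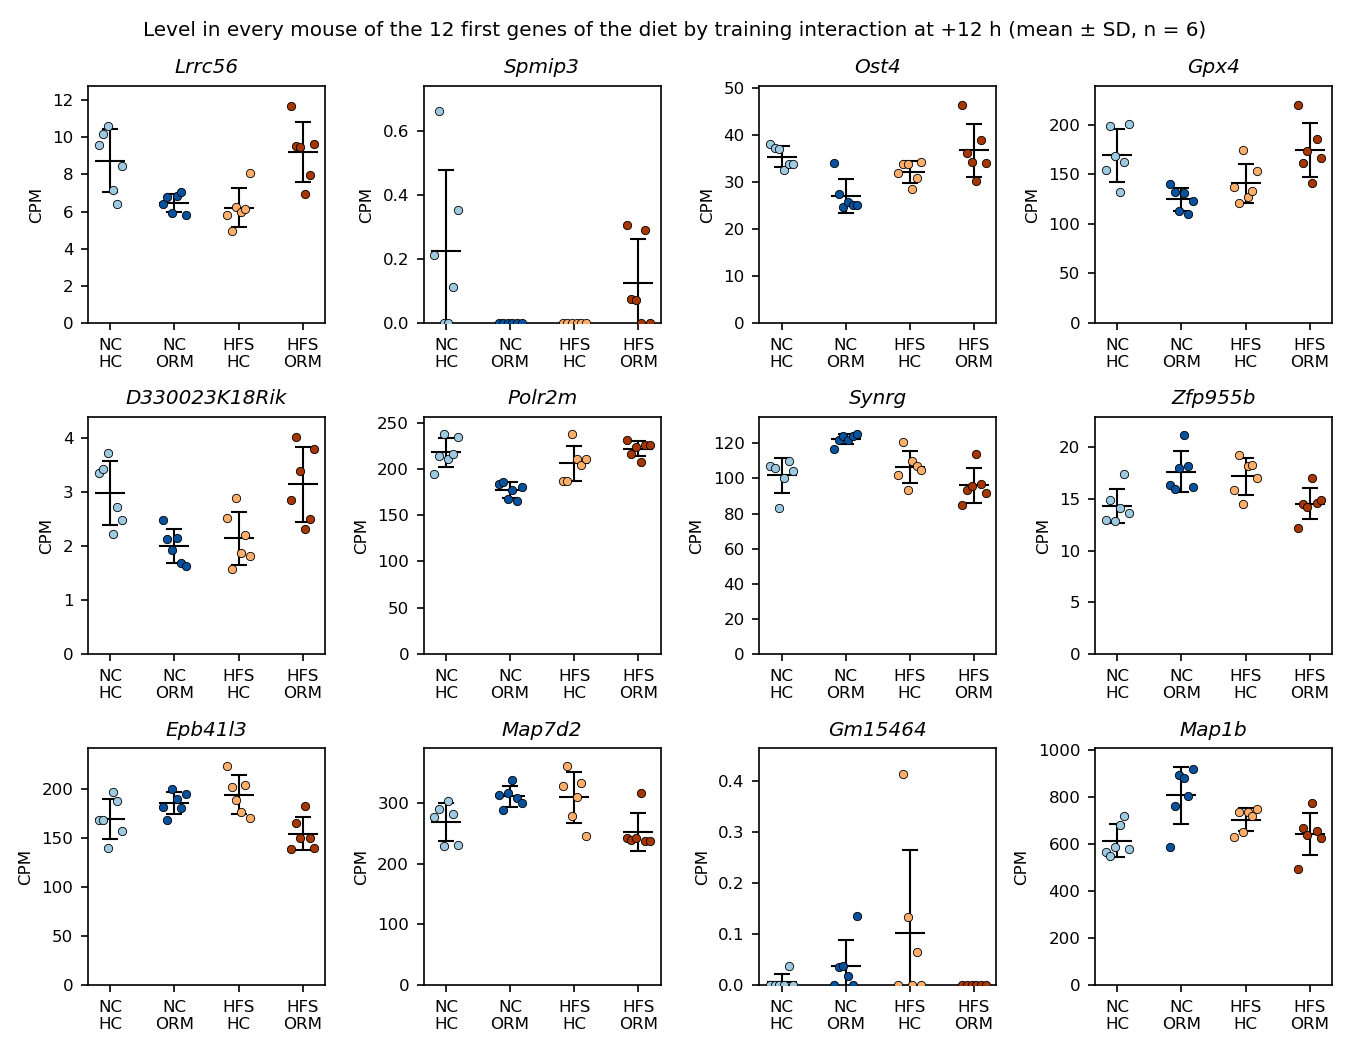
Level in CPM (y axis) of the 6 genes with the smallest interaction p in each direction, for the 6 mice of each group (points) with mean and SD (bars), by diet and task (x axis). Lrrc56, Ost4, Gpx4, D330023K18Rik and Polr2m were lower after training on NC and higher on HFS, Synrg, Zfp955b, Epb41l3, Map7d2 and Map1b went the other way, and Spmip3 and Gm15464 had no counts in 2 and 1 of the groups.

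At 5 of the 32 DEG at least 8 of the 24 mice had no count, and 3 (Spmip3, Gm15464 and Gm6311) averaged under 5 counts a mouse, a range in which the test makes too many calls, so these calls are less firm. Spmip3, a gene of sperm microtubules, had no counts in the 6 NC ad lib ORM+12 h mice and none in the 6 HFS ad lib HC zt15 mice, against 68 counts over 4 of 6 NC ad lib HC zt15 mice and 38 over 4 of 6 HFS ad lib ORM+12 h mice. Set against the 0.00961 CPM that 3 counts over a group would give, its mean was at least 23.3-fold higher in untrained than in trained NC ad lib mice and at least 12.9-fold higher in trained than in untrained HFS ad lib mice. The mice with counts were mostly those with a high choroid plexus score (r = 0.75). The pseudogene Gm15464 had 33 counts in 3 HFS ad lib HC zt15 mice and none in the 6 trained ones, at least 10.9-fold higher. Of these 33 counts, 22 came from replicate 2, the mouse with the high microglial markers. In the NC ad lib groups Gm15464 had 2 and 11 counts. The pseudogene Gm6311 had no counts in NC ad lib HC zt15 and 33 in NC ad lib ORM+12 h, at least 10.4-fold higher. Mexis, a long non-coding RNA known from macrophages, had 48 and 22 counts on NC and 2 and 56 on HFS, untrained and trained. Reads of processed pseudogenes (Gm13192, Gm15464 and Gm6311) may be shared with their parent genes, so their levels are uncertain.

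The differences of Lcn2 and Clec5a rested on 1 mouse or leaned on it. Lcn2, an iron-binding lipocalin of inflamed tissue, was at 17.5 CPM in replicate 2 of HFS ad lib HC zt15, the mouse with the high microglial markers, and at a median of 0.0201 CPM in that group. Without this mouse its interaction moved from -9.02 to -2.14 (log2, adjusted p = 0.644). Clec5a, a lectin of myeloid cells, ranged from 0.342 to 2.86 CPM in that group and from 0.113 to 0.669 CPM in HFS ad lib ORM+12 h. Its interaction was -2.56 ± 0.58 (adjusted p = 0.0435) with all mice and -2.07 without the same mouse (adjusted p = 0.115).

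Exons of 23 of the 32 DEG share bases with exons of another annotated gene on the opposite strand (Ost4 with Agbl5, Srsf9 with Gatc, P2rx6 with Slc7a4, for example). The library kit marks the strand, but whether counting used it is not given in the sources used here, so reads of these partners may be part of the values.

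Genes that responded in opposite directions were counted as those with an unadjusted p under 0.05 on each diet and opposite signs. There were 501 such genes (1.66% of those tested), 315 (1.05%) with HFS ad lib up and NC ad lib down and 186 (0.617%) the other way. Genes with the same sign numbered 333 (1.1%), 206 up (0.683%) and 127 down (0.421%) on both diets. Among the 19653 genes that averaged 5 counts or more a mouse, 324 (1.65%) were opposite and 174 (0.885%) had the same sign. Of the 501 genes, 21 passed the interaction at an adjusted p under 0.05. No gene had trained and untrained mice fully apart on both diets, in the same or in opposite directions, while 133 genes (0.441%) were fully apart on NC and 76 (0.252%) on HFS.

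Taking the genes with the most balanced evidence on the 2 diets, the 6 that were up on HFS and down on NC were Lrrc56, Spmip3, Gpx4, D330023K18Rik, Srsf9 and Gm37166, and the 6 that were down on HFS and up on NC were Zfp955b, Map7d2, Trim9, Phlpp1, Rtf1 and Nop58. Gm37166, a low gene, had 24 counts in NC ad lib HC zt15, 29 in HFS ad lib ORM+12 h and none in the other groups. Phlpp1, a phosphatase of Akt that was first described as a protein oscillating in the clock nucleus, had medians of 92.5 and 107 CPM on NC and 95.4 and 80.6 CPM on HFS, before and after training. Its responses were 0.20 ± 0.07 and -0.21 ± 0.07 (unadjusted p = 0.00379 and 0.00351), and its interaction of -0.41 missed the threshold (adjusted p = 0.0545). Rtf1, of the Paf1 complex that assists transcription elongation, had responses of 0.18 and -0.19 and an interaction of -0.37 (adjusted p = 0.0707). Nop58, a core protein of the box C/D small nucleolar RNPs, was fully apart on NC (30.8 to 34.4 CPM untrained, 35 to 39.6 CPM trained) and overlapped on HFS, with an interaction of -0.37 (adjusted p = 0.0735).

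**Figure D3:**
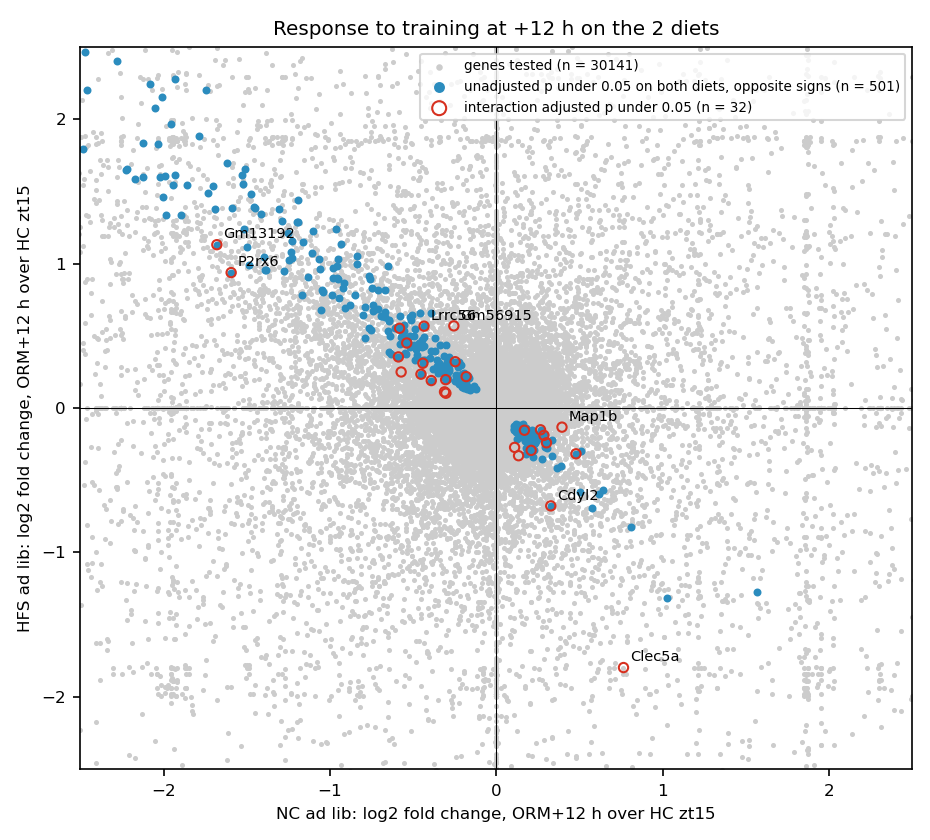
Response to training (log2 fold change of ORM+12 h over HC zt15) in NC ad lib mice (x axis) and in HFS ad lib mice (y axis) for each gene tested, grey, with the 501 opposite genes in blue and the 32 interaction DEG in red circles. Axes end at 2.5, and 3750 genes, 176 of the opposite genes and 5 of the DEG lie outside. The DEG lie in the upper left and lower right quadrants.

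The calls depended on single mice. With each of the 24 mice left out in turn, the number of interaction DEG ran from 2 to 1259, with a median of 18.5, and between 2 and 32 of the original 32 stayed past the threshold. Lrrc56 and Spmip3 were called in all 24 cases, 3 genes were lost in 1 to 5 cases, 9 in 6 to 11 cases and 18 in 12 or more. None of the 32 changed sign. The fewest DEG were left without replicate 1 of HFS ad lib ORM+12 h (2), replicate 2 of HFS ad lib HC zt15 (3) or replicate 3 of NC ad lib ORM+12 h (3). The most were called without replicate 4 of HFS ad lib ORM+12 h (1259) or replicate 3 of HFS ad lib HC zt15 (949), and each of these lists held all 32. Leaving out replicate 4 (175) or 6 (5) or 3 (6) of NC ad lib HC zt15, replicate 2 (93), 1 (69) or 6 (12) of NC ad lib ORM+12 h, replicate 6 (135) or 5 (13) of HFS ad lib HC zt15, or replicate 3 (5) of HFS ad lib ORM+12 h also moved the number. The number also fell without replicate 4 (16) or 5 (18) of NC ad lib ORM+12 h or replicate 4 (17) of HFS ad lib HC zt15. It fell as well without replicate 2 (14), 5 (19) or 6 (19) of HFS ad lib ORM+12 h. It stayed within 1.5 times 32 without replicates 1, 2 or 5 of NC ad lib HC zt15 or replicate 1 of HFS ad lib HC zt15 (29, 22, 36 and 28). Replicate 4 of the trained and replicate 3 of the home cage HFS ad lib mice were at the ends of their groups in choroid plexus markers. Replicate 4 was at 251 CPM where the other trained HFS ad lib mice were at 842 to 21900 CPM, and replicate 3 was at 12000 CPM where the other home cage HFS ad lib mice were at 246 to 1790 CPM. Without the highest mouse of the trained HFS ad lib group, replicate 5 at 21900 CPM, 19 genes were called. Without the highest NC ad lib mice in turn, replicate 2 untrained (20700 CPM) and replicate 4 trained (5370 CPM), 22 and 16 were called. The part of choroid plexus content in these shifts was not tested. With the choroid plexus score as a covariate, chosen after seeing the data, 3 genes were called, of which 1, Lrrc56, was among the 32 (interaction 0.92, adjusted p = 0.029). All 10 markers of the score had a positive interaction, so the covariate cannot tell tissue content from a response to training.

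**Figure D4:**
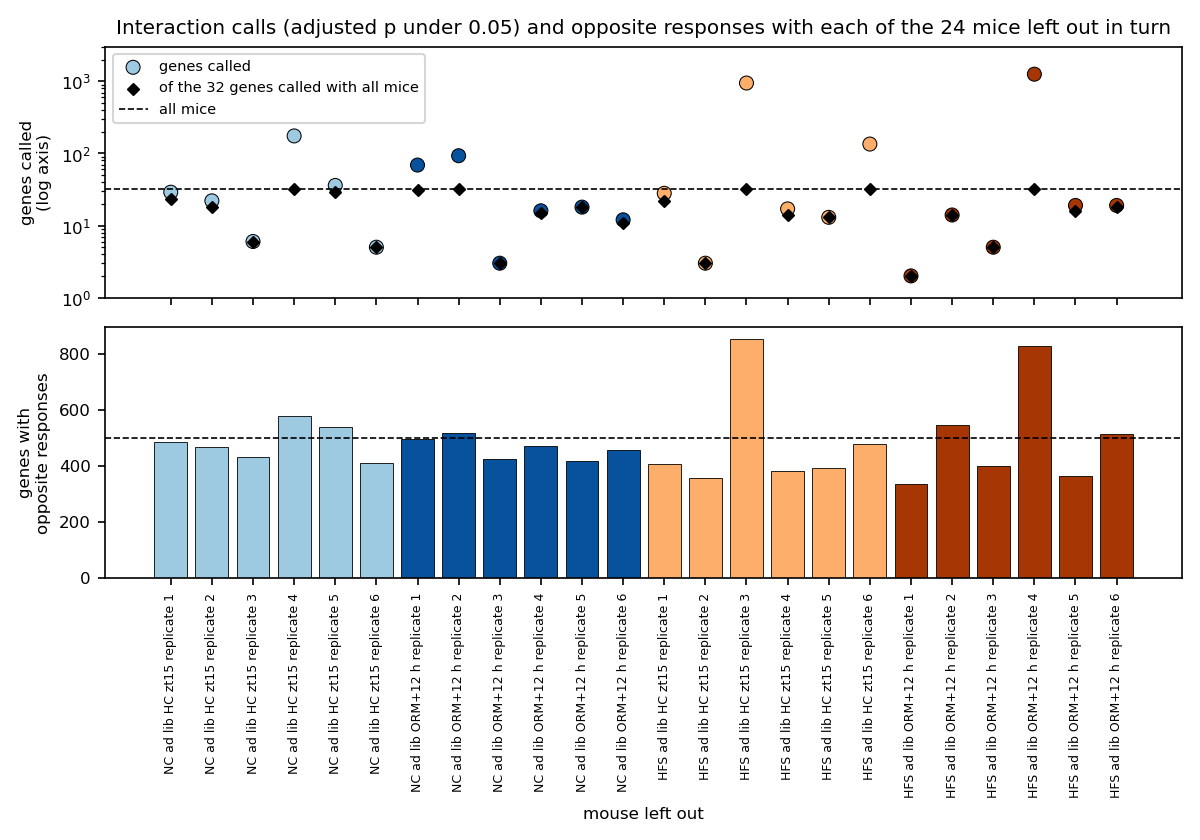
Number of interaction DEG (upper panel, log axis, coloured points, with diamonds for those among the original 32) and number of opposite genes (lower panel) with each of the 24 mice left out (x axis), and with all mice (dashed lines, 32 and 501). Leaving out replicate 3 of HFS ad lib HC zt15 or replicate 4 of HFS ad lib ORM+12 h raised both numbers.

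The number of opposite genes varied less, from 337 without replicate 1 of HFS ad lib ORM+12 h to 853 without replicate 3 of HFS ad lib HC zt15. Of the 501 genes, 40 kept their status in all 24 cases and 219 in fewer than 18. The calls of training on NC ran from 1 (without replicate 6 of NC ad lib HC zt15, or replicate 5 or 6 of NC ad lib ORM+12 h) to 249 (without replicate 1 of NC ad lib ORM+12 h). Those on HFS ran from 0 in edgeR (without replicate 2 of HFS ad lib ORM+12 h, with 4614 genes at an unadjusted p under 0.05) to 694 (without replicate 6 of HFS ad lib HC zt15). The test also borrowed its error from the other 47 mice. When the model held the 24 mice alone, no gene passed (edgeR, smallest adjusted p = 0.18), although each of the 32 kept an unadjusted p under 0.05 and 4189 genes had one. The DESeq2 Wald test on 71 mice called 615 genes, 31 of the 32 among them, and gave Spmip3 no adjusted p.

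Gene lists placed these genes beside others of their kind, with the interaction at an unadjusted p under 0.05 counted in each direction. Over all genes tested, 9.94% were positive and 8.78% negative, and the median interaction was 0. For training alone the shares were 7.67% higher and 9.09% lower on NC, and 7.94% higher and 9.08% lower on HFS. Over 12944 protein-coding genes at 1 CPM or more the median interaction was -0.04. Map1b was the single member of any list to pass the adjusted threshold, so the counts below describe lists and are not calls.

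Lists of presynaptic genes, of glutamate and GABA receptors and of cytoskeletal genes had more negative than positive members, that is, more with a more positive response in NC ad lib mice. No test compared lists. Of 26 cytoskeletal motors and spectrins, 12 were negative and 1 positive (median -0.20). Of 22 genes of presynaptic release, 9 were negative and none positive (median -0.22), led by Rims1 and Rims2, the scaffolds of the active zone, at -0.40 ± 0.12 and -0.32 ± 0.11 (adjusted p = 0.0787 and 0.103). Of 17 ionotropic glutamate receptor genes, 5 were negative and none positive (median -0.22), with the AMPA receptor subunits Gria2 and Gria4 at -0.47 and -0.34 (adjusted p = 0.0786 and 0.166). The counts were 3 of 7 for metabotropic glutamate receptors (Grm5, -0.47, adjusted p = 0.0817) and 6 of 14 for GABA receptors (Gabrb2, -0.47, adjusted p = 0.0936), with none positive in either. Median responses of these 5 lists lay between 0.13 and 0.19 on NC and between -0.17 and -0.03 on HFS.

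Activity-induced effectors, the proteins that neurons make in the wake of activity, had 8 of 20 negative and none positive (median -0.34, with medians of 0.26 on NC and -0.07 on HFS). The granin Scg2 was at -0.63 ± 0.18 (adjusted p = 0.0786) and the cyclooxygenase Ptgs2 at -0.59 ± 0.19 (adjusted p = 0.0918). The immediate early genes, which rise and decay within hours, had none of 20 in either direction (median -0.15), with Ier5 at -0.31 (adjusted p = 0.324) and Klf4 at -0.82 (adjusted p = 0.359). Of 20 neuropeptide genes, 5 were negative (median -0.29), with Scg2 again and Chgb at -0.40 (adjusted p = 0.105). Of 20 calcium-binding proteins, 8 were negative (median -0.18), with Ncald at -0.28 (adjusted p = 0.111) and Vsnl1 at -0.37 (adjusted p = 0.113).

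Among ion channels, 3 of 15 calcium channel genes were negative (Cacna2d1, -0.46, adjusted p = 0.099, and Cacna2d3, -0.27, adjusted p = 0.188), 2 of 8 sodium channel genes (Scn1a, -0.34, adjusted p = 0.161, and Scn2a, -0.27, adjusted p = 0.213) and 1 of 18 potassium channel genes (Kcnh7, -0.57, adjusted p = 0.0873, beside Kcna2, -0.21, adjusted p = 0.401). Calcium release channels and pumps had 6 of 20 positive and 1 negative. Their median was 0.09, between -0.006 and 0.19 with single mice left out, and 11 estimates were positive and 9 negative. Members included the store-operated channel Orai1 at 0.60 (adjusted p = 0.139, and 0.25 with the choroid plexus covariate) and the ryanodine receptor Ryr1 at 0.90 (adjusted p = 0.0966). Ryr1 leaned on replicate 2 of HFS ad lib ORM+12 h, at 29.5 CPM against 5.6 to 12.4 CPM in the other 5 mice, and was at 0.39 without it (adjusted p = 0.41). Postsynaptic scaffolds had 1 of 15 positive, Dlg4, which encodes PSD-95, at 0.24 (adjusted p = 0.263), and Dlg3 at -0.16 (adjusted p = 0.387). Monoamine and acetylcholine receptors had 1 of 28 positive, the serotonin receptor Htr2c at 2.41 (adjusted p = 0.0831), a gene that the choroid plexus also expresses strongly (with the covariate 0.45), and 2 negative, with the muscarinic receptor Chrm2 at -0.55 (adjusted p = 0.187).

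Cytosolic chaperones, which fold proteins under heat and other stress, had 9 of 17 negative and none positive (median -0.32), and here the HFS ad lib side carried the count, with 10 of 17 lower after training at an unadjusted p under 0.05 on HFS and 1 higher on NC. Dnaja1 was at -0.50 ± 0.13 (adjusted p = 0.0735) and Hspa4l at -0.40 ± 0.12 (adjusted p = 0.0804). Chaperones of the endoplasmic reticulum had 1 of 16 negative, Canx at -0.39 (adjusted p = 0.103), with Hyou1 at -0.32 (adjusted p = 0.386), and with the choroid plexus score as a covariate this list had 5 negative (median -0.42, against -0.04 without it). Of 34 splicing and RNA-binding proteins, 11 were negative and none positive (median -0.15), with Srsf11 at -0.27 (adjusted p = 0.0817) and Celf2 at -0.29 (adjusted p = 0.0932). Of 32 chromatin regulators, 5 were negative and 1 positive (median -0.04), with Smarca4 and Smarca2, the motors of the BAF complex, at -0.25 (adjusted p = 0.103) and -0.17 (adjusted p = 0.11). Of 21 genes of cholesterol synthesis, 5 were negative (median -0.06), with Hsd17b7 at -0.36 (adjusted p = 0.099) and Cyp51 at -0.35 (adjusted p = 0.159).

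Nuclear genes of oxidative phosphorylation had more positive than negative members. Of 83 nuclear genes for subunits of oxidative phosphorylation, 24 were positive and 2 negative (median 0.11), and on NC 27 were lower after training at an unadjusted p under 0.05 and none higher. Ndufb1, of complex I, was at 0.50 ± 0.13 and Cox7a1, of complex IV, at 1.95 ± 0.50 (adjusted p = 0.0735 each), and Cox7a1 was at 0.76 with the choroid plexus score as a covariate. Of 13 protein genes of the mitochondrial genome, 2 were positive (median 0.41, between 0.17 and 1.07 with single mice left out), and both rested on few counts. Over the 6 mice of each group, untrained and trained, mt-Nd3 had 34 and 2 counts on NC and 27 and 45 on HFS, and mt-Atp8 had 5 and 0 on NC and 4 and 5 on HFS, so no fold is given. Of 85 cytosolic ribosomal proteins, 7 were positive, a share below that of all genes tested, and 1 negative (median 0.03), with Rpl41 at 0.54 ± 0.13 (adjusted p = 0.059) and Rps29 at 0.46 ± 0.13 (adjusted p = 0.0791).

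Of the signalling lists, the Wnt pathway had 4 of 27 positive and none negative (median 0.12), with the receptors Fzd7 at 1.87 (adjusted p = 0.0786) and Lrp5 at 1.64 (adjusted p = 0.0945), which were at 0.51 and 0.30 with the choroid plexus covariate. The insulin and IGF list had 3 of 22 positive and 2 negative, with Igfbp2 at 4.28 (adjusted p = 0.0786) and Igf2 at 4.29 (adjusted p = 0.0909), both products of choroid plexus and meninges, which were at 0.47 and -0.015 with the choroid plexus covariate, a change of sign for Igf2. The thyroid hormone list had 3 of 19 positive and 2 negative, with the hormone transporter Slco1c1 at 2.58 (adjusted p = 0.0969), which barrier and choroid plexus cells carry, and which changed sign to -0.028 with that covariate. Circadian clock genes had 1 of 19 negative, the repressor Cry2 at -0.26 ± 0.09 (adjusted p = 0.096), with Nfil3 at -0.46 (adjusted p = 0.298). The list named S6 and its kinases had 1 of 9 negative, Pdpk1 at -0.35 ± 0.09 (adjusted p = 0.0703), with Eif4ebp1 at -0.63 (adjusted p = 0.462), or -0.20 without replicate 2 of HFS ad lib HC zt15. Neither Pdpk1 nor Eif4ebp1 is S6 or a kinase that acts on S6 itself. Astrocytic glutamate handling had none of 9, with Slc1a3 at -0.53 (adjusted p = 0.566) and Grm3 at -0.42 (adjusted p = 0.591).

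**Figure D5:**
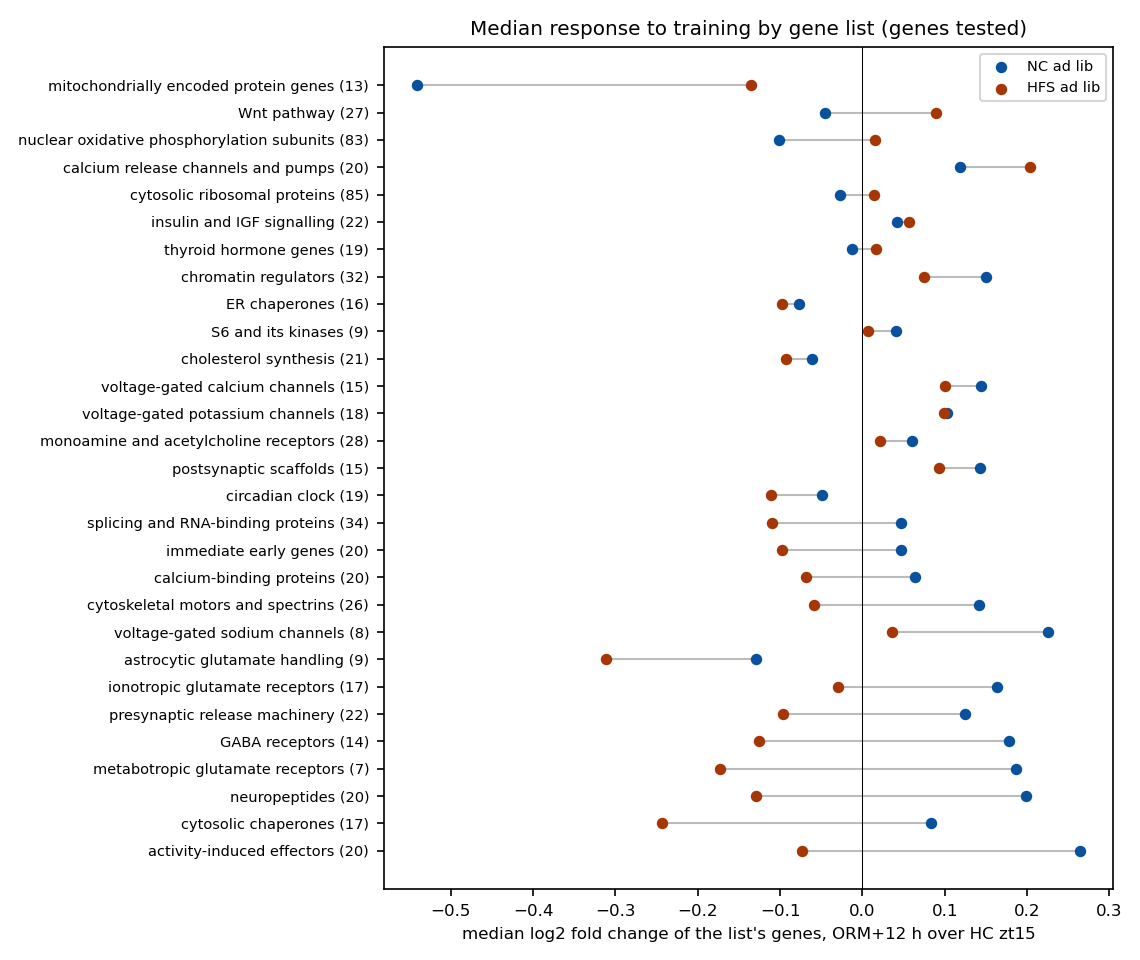
Median response to training (log2 fold change of ORM+12 h over HC zt15, x axis) of the genes of each list in NC ad lib mice (blue) and HFS ad lib mice (brown), with the number of genes tested in brackets and lists ordered by median interaction (y axis). The median of all genes tested was 0 on both diets. Glutamate and GABA receptor lists lay right of 0 for NC and left of it for HFS, and nuclear oxidative phosphorylation subunits lay at -0.10 for NC and 0.01 for HFS.

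No marker of a cell type passed the adjusted threshold of the interaction. All 10 choroid plexus markers were positive at an unadjusted p under 0.05 (median 4.15, with -2.57 on NC and 1.58 on HFS), with Kl at 3.22 and Slc4a5 at 4.63 (adjusted p = 0.0957 and 0.099). With the choroid plexus score as a covariate, which contains these genes, their median was 0.05. Ependymal markers had 2 of 4 positive (Foxj1, 2.09, adjusted p = 0.119, which changed sign to -0.16 with the covariate, and Rarres2, 1.11, adjusted p = 0.212) and markers of mural cells and fibroblasts 2 of 8 (Igf2 and Col1a2, the latter 1.94, adjusted p = 0.099). All 8 microglial markers were negative at an unadjusted p under 0.05 (median -1.22), with C1qa at -1.41 and Csf1r at -1.21 (adjusted p = 0.0786 and 0.0817). Without replicate 2 of HFS ad lib HC zt15, none of the 8 reached it and the median was -0.23. Myelinating oligodendrocytes had 4 of 8 negative (median -0.37), with Ermn at -0.71 and Mag at -0.56 (adjusted p = 0.129 and 0.148), and GABAergic neurons 4 of 10 (median -0.29), with Gad2 at -0.44 and Reln at -0.53 (adjusted p = 0.0817 and 0.0922).

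Other cell types had at most 1 member in each direction. Among excitatory neurons it was Neurod6 (-0.44, adjusted p = 0.0902, beside Neurod2, -0.18, adjusted p = 0.431), in CA1 Pou3f1 (-0.48, adjusted p = 0.106, beside Wfs1, -0.22, adjusted p = 0.707), and in CA2 and CA3 Iyd (-0.54, adjusted p = 0.158, beside Rgs14, -0.21, adjusted p = 0.387). Dentate granule markers had Glis3 positive and Calb1 negative (0.73 and -0.41, adjusted p = 0.161 and 0.177). Endothelial markers had Slco1a4 positive and Ly6c1 negative (3.73 and -2.21, adjusted p = 0.088 and 0.134). None reached an unadjusted p under 0.05 among 10 astrocyte markers (Gfap, -0.43, adjusted p = 0.531), 5 markers of oligodendrocyte precursors (Gpr17, -0.27, adjusted p = 0.455, and Tnr, -0.16, adjusted p = 0.569), 6 of thalamus (Rgs16, -0.98, adjusted p = 0.402, and Synpo2, -1.70, adjusted p = 0.435) and 6 of cortex and subiculum (Etv1, -0.33, adjusted p = 0.3, and Cux2, 0.28, adjusted p = 0.453). Of the function lists, with the same covariate, activity-induced effectors had 7 of 20 negative, cytosolic chaperones 8 of 17, presynaptic genes 3 of 22 and cytoskeletal motors and spectrins 9 of 26 negative and 3 positive, and 15 of 83 nuclear oxidative phosphorylation genes were positive and 3 negative. The calcium-binding proteins had none of 20 negative (median -0.10), ionotropic glutamate receptors 2 of 17 negative and 1 positive, metabotropic receptors 1 of 7, GABA receptors 4 of 14, neuropeptides 4 of 20, splicing and RNA-binding proteins 7 of 34, calcium release channels and pumps 3 of 20 positive and 1 negative, and the Wnt pathway 2 of 27 positive and 1 negative. Without replicate 2 of HFS ad lib HC zt15, 3 of the 20 calcium-binding proteins were negative.

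Transcript length moved with the direction of the difference. The 14 protein-coding DEG with a more positive response in HFS ad lib mice had a median exon length of 4917 bases (annotated exons of a gene joined, GRCm39), and the 12 with a more positive response in NC ad lib mice had 9200 bases, against 6577 bases over 12944 protein-coding genes at 1 CPM or more. Splitting these genes into 5 bins by length, the median interaction went from 0.03 in the shortest bin to -0.09 in the longest. In single mice, the slope of log2 CPM on doubling of length ran from -0.08 to 0.06 in NC ad lib HC zt15 (median -0.04), -0.06 to 0.07 in NC ad lib ORM+12 h (0.05), -0.03 to 0.05 in HFS ad lib HC zt15 (-0.01) and -0.11 to 0.05 in HFS ad lib ORM+12 h (-0.01). The part of length in the calls was not tested.

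Mice outside the comparison gave a second reading of the 32 DEG. In the 11 mice of the HFS TRF groups, which ate the HFS diet in a restricted window in the last 4 weeks, training at +12 h called 741 genes (2.46%) and none of the 32. At an unadjusted p under 0.05 there were 2 of 32 (Spmip3, for which fitted fold changes depend on zero counts, and Clec5a, at 0.99), against 21.5% of all genes. The response in HFS TRF mice had the sign of the NC ad lib response in 18 of 32. For the same 2 diets at +1 h, in 12 mice culled 1 h after training and 12 home cage mice at zt3, the diet by training interaction called none of 30141 genes in edgeR (1884, or 6.25%, at an unadjusted p under 0.05) and none of the 32 reached an unadjusted p under 0.05. Among the 27 better counted DEG, training in HFS TRF mice had a median size of 0.12. Training at +12 h had 0.33 in NC ad lib mice and 0.29 in HFS ad lib mice. The median size of the interaction was 0.09 at +1 h, against 0.58 at +12 h. The 3 ad lib values at +12 h come from the mice in which the genes were chosen. Lrrc56 was at 0.05 both for training in HFS TRF mice and for the interaction at +1 h (adjusted p = 0.927 and 1).

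The 4 groups can also be read by diet, with values that share mice with the interaction. The diets differed in 19 genes (0.063%) in the home cage at zt15, all higher in HFS ad lib, and in 684 genes (2.27%) after training, 230 higher (0.763%) and 454 lower (1.51%). Of the 32 DEG, 2 (Lcn2 and Gm6311) passed in the home cage and 22 after training. Synrg, for example, was at 0.07 (log2, HFS ad lib over NC ad lib) in the home cage (adjusted p = 0.669) and at -0.35 after training (adjusted p = 0.000943), and Ost4 was at -0.14 (adjusted p = 0.492) and 0.44 (adjusted p = 0.00415). Lcn2 had 932 counts in replicate 2 of HFS ad lib HC zt15 and 0 to 4 in the rest of that group. The trained groups had median choroid plexus sums of 517 CPM on NC and 7180 CPM on HFS. The diet contrasts were not refitted with mice left out or with the choroid plexus covariate, so their dependence on these was not tested.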

How the data were processed

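The authors trimmed reads with Trim Galore 0.6.7 and cutadapt 3.4, aligned them to GRCm39 with HISAT2 2.2.0 and counted them per gene with featureCounts (Subread 2.0.3). The deposited raw counts (57010 genes, 71 mice) were used as deposited, and gene names came from GENCODE M39 (56310 genes matched). Counts of 30141 genes with at least 10 in total were fitted in edgeR 4.0.16 (R 4.3.3) with TMM normalization, a single model with a term for each of the 12 groups and the quasi-likelihood F test, with Benjamini-Hochberg adjusted p and a threshold of 0.05. CPM are TMM-normalized. The labels do not say whether mice of a group shared litters or days. The p-values therefore measure only the spread between mice within groups, pooled over all 71 mice and 12 groups. For well counted genes, library pairs within groups differed beyond sampling noise. Models without 1 mouse kept the dispersion trend of all mice. The model was tested on simulated data, where unchanged genes that average under 5 counts a mouse reached an unadjusted p under 0.05 more often than the nominal share. Alternatives were DESeq2 1.42.0, limma 3.58.1 with quality weights, other filters and scalings, fewer mice and replicate blocks. Counting error set little of the spread of well counted genes at these depths. Genes with few counts were left out of that comparison.

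The genes named are the DEG of the interaction (the first 12 by p in each direction, with others marked), the 6 opposite genes of each direction with the smallest value of the larger p, and of each list the members past the threshold or else the 2 with the smallest p. Some list members that this rule names are not reported here. The members and lists were chosen with earlier results of these data known.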

Additional observations from a re-analysis of the deposited data

Results flagged for a closer look

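Differences in the response to training between the diets, tested by the interaction itself, are given for the first 12 genes by p in each direction. With a more positive response in HFS ad lib mice, the log2 differences were 1.00 for Lrrc56, 0.58 for Ost4, 0.75 for Gpx4, 1.13 for D330023K18Rik, 0.41 for Polr2m, 0.40 for Srsf9, 0.69 for Cfap68, 0.94 for Ninj1, 0.57 for Dusp18 and 2.81 for Gm13192. With a more positive response in NC ad lib mice, they were -0.42 for Synrg, -0.54 for Zfp955b, -0.46 for Epb41l3, -0.50 for Map7d2, -0.53 for Map1b, -0.48 for Tcof1, -0.38 for Rnmt, -2.56 for Clec5a and -0.80 for Slc9a7. Where a group had few counts or none, the fitted values depend on the prior count and are no bound: 12.4 for Spmip3, 5.58 for Mexis, -7.58 for Gm15464, -9.02 for Lcn2 and -6.07 for Gm6311.

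Single mice also stood apart from the other 5 of their group by Dixon's ratio, the gap to the nearest mouse over the range of the group, with a 95% critical value of 0.625. The ratio was computed 105 times, and chance gives about 1 in 20 such groups. Among the genes, the ratio was 0.67 for Ost4 in NC ad lib ORM+12 h, 0.66 for Synrg in NC ad lib HC zt15, 0.92 for Map7d2 in HFS ad lib ORM+12 h and 1 for Gm15464 in NC ad lib HC zt15, where a single mouse had counts. Among the marker scores, it was 0.94 for microglia in HFS ad lib HC zt15 replicate 2, 0.84 for thalamus in NC ad lib ORM+12 h replicate 6, 0.75 for choroid plexus and 0.75 for CA1 in NC ad lib ORM+12 h replicate 4, 0.65 for mural cells and fibroblasts in HFS ad lib ORM+12 h replicate 4 and 0.64 for CA2 and CA3 in NC ad lib ORM+12 h replicate 6.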

How the results depend on the processing

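With DESeq2 size factors or robust estimation in edgeR, the number of interaction DEG (32 as reported) was 30 and 24. It was 17 when genes needed only 1 count in total, 73 with filterByExpr and 615 with the DESeq2 Wald test. With the choroid plexus score as a covariate it was 3, and 4 when replicate 2 of HFS ad lib HC zt15 was left out as well, both chosen after seeing the data. In edgeR models of the 24 mice compared, or of the 35 mice of the HC zt15 and ORM+12 h groups, no gene passed, with 4189 and 4346 at an unadjusted p under 0.05. DEG of training in NC ad lib mice (63) numbered 124 with filterByExpr, 303 with DESeq2, 4 and 6 with the covariate, and 0 in edgeR with 24 or 35 mice. DEG of training in HFS ad lib mice (54) numbered 313 with limma, 252 with DESeq2, 16 with the covariate and without that mouse, and 0 in edgeR with 24 or 35 mice. In those 2 models 3607 and 3808 genes on NC and 3471 and 3723 on HFS had an unadjusted p under 0.05. Opposite genes (501) numbered 330 with 35 mice, 296 and 263 with the covariate, 285 among protein-coding genes alone (fewer genes tested, chosen after seeing the data) and 298 with limma. The cause of these shifts was not tested. With each mouse left out in turn, the ranges were 2 to 1259 for the interaction, 1 to 249 for NC ad lib, 0 to 694 for HFS ad lib and 337 to 853 for opposite genes. With the covariate, alone and without that mouse, the interaction turned to -0.015 and -0.14 for Igf2, -0.16 and -0.18 for Foxj1 and -0.028 and -0.097 for Slco1c1.

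The labels do not say whether mice with the same replicate number belong together. Among 24 same-numbered pairs, 14 correlated above 0.1 in their deviations from group means (-0.52 to 0.55), and 7 correlated best with their own number. These correlations cannot settle whether the numbers mark a pairing or a batch, and the main model has no block. With the replicate block the interaction called 52 genes, 30 of the 32 among them, and 52 with a replicate block within task over 24 mice, 11 of the 32 among them, a model that gives no value for single diets.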
